A study of Sus scrofa with 20 samples.

Results

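Genes that mark lymphocytes were read in pig libraries prepared from biliary tree stem cells and from sorted liver cells. The 9 genes are PTPRC, CD2, CD3D, CD3E, CD3G, CD4, MS4A1, CD79A and CD79B, taken by name as markers of all leukocytes, of T cells and of B cells, without use of their values. All 9 had a row among the 25764 genes of the deposited table, and all 9 were among the 15576 genes that reached the minimum for testing. The study asked which genes identify porcine biliary tree stem cells (pBTSCs) and used antibodies to surface antigens, CD45 among them, to separate these cells and liver cells. The tests ask whether lymphocyte transcripts followed that sorting.

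The samples were 20 poly(A) RNA libraries in 6 groups. The pBTSC group held 5 libraries (S2, S7, S11, S15 and S20, named here as in the labels), each from 1 newborn piglet, and the labels give gallbladder as the tissue. The paper defines biliary tree stem cells as CD45-/EpCAM+ cells, so this group too was selected as lacking CD45. It states that selected stem cells were then kept in medium until organoids formed, together with early mesenchymal cells. The pBTSC libraries S2, S7 and S11 came from an H2B-GFP line, in which a fusion of histone H2B and green fluorescent protein is expressed from the beta-actin locus in all tissues, and S15 and S20 came from wild-type piglets. The liver libraries were 5 of CD45+ cells (S3, S8, S12, S18 and S23), 4 of CD45-/EpCAM+ cells (S4, S9, S13 and S19), 2 of CD45-/EpCAM- cells (S5 and S14), 2 of CD31+ cells (S16 and S21) and 2 of CD146+ cells (S17 and S22). No drug, dose or time course was applied, and the donor of each liver library is not given in the sources used here. p-values therefore measure the spread between these libraries. In such bulk samples, fewer cells of a type and less RNA per cell cannot be told apart.

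T cells recognise antigen through a T cell receptor that signals through the CD3 chains, B cells through an antibody-like receptor that signals through CD79A and CD79B. Receptor engagement is read by kinases, and coreceptors such as CD4 and adhesion molecules such as CD2 strengthen the contact with the antigen-presenting cell. The liver is known for a resident population of macrophages and of innate-like lymphocytes, and the bile duct wall also holds lymphocytes.

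Depth sets what can be read from these genes. The number of reads was estimated from the value of 1 read in each library, and 17 libraries came to between 21300000 and 77900000 reads. In these, 3 reads, taken as the least that can be told from 0, were worth between 0.680 and 4.27 normalised counts. The other 3 libraries, the pBTSC library S15, the CD45-/EpCAM+ library S13 and the CD146+ library S22, held an estimated 1570000, 801000 and 455000 reads, where the same 3 reads were worth 37.7, 77.1 and 156 normalised counts. These floors cover counting error only. A value of 0 in one of the shallow libraries is therefore a value under its floor, and each count is also given without them. RNA quality differed as well. The paper's RNA integrity numbers for pBTSC libraries were highest in S20, next in S2 and lower in S11 and S7, with none given for S15. The part of RNA quality in the values was not tested. The liver libraries also fell together by storage number, the number in the library name. Runs of consecutive numbers that each open with a pBTSC library (2 to 5, 7 to 9, 11 to 14, 15 to 19 and 20 to 23) gave a median correlation across genes of 0.994 between liver libraries of different sorts (12 pairs), against 0.953 between liver libraries of the same sort in different runs (15 pairs). The ranges overlapped, from 0.926 to 0.995 against 0.935 to 0.984. S5 was nearer to S14 of its sort (0.954) than to S3 (0.926) and S4 (0.942) of its run. The run from 15 to 19 gives more of the same-run pairs than any other run. Whether a run is 1 donor is not stated. Genes are not independent replicates, and no test was made of the difference between these medians.

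PTPRC encodes CD45, the phosphatase on the surface of all nucleated blood cells that was the antigen of the sort, so its transcript checks the labels. In CD45+ liver cells it stood at 424 normalised counts in S3, 1153 in S8, 2687 in S12, 1227 in S18 and 1777 in S23. In CD45-/EpCAM+ liver cells it stood at 450 in S4, 2460.1 in S9, 3027 in S13 and 1364 in S19, and in CD45-/EpCAM- liver cells at 1317 in S5 and 2850.2 in S14. The CD45- libraries lay in the same range as the CD45+ libraries, and the group with the highest median was one sorted as lacking CD45. In CD31+ liver cells PTPRC was 1247 in S16 and 1752.5 in S21, and in CD146+ liver cells 1349 in S17 and 2102 in S22. The pBTSC libraries held 971 in S2, 534 in S7, 777 in S11, 1455 in S15 and 2139.5 in S20. The neighbouring groups in the order of medians of deep libraries all overlapped for PTPRC, and limma with Benjamini-Hochberg adjustment called it in none of the 10 comparisons. The ranges of CD45+ and CD45- libraries overlapped, as the plot of the 9 genes by sorted group shows.

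**Figure D1:**
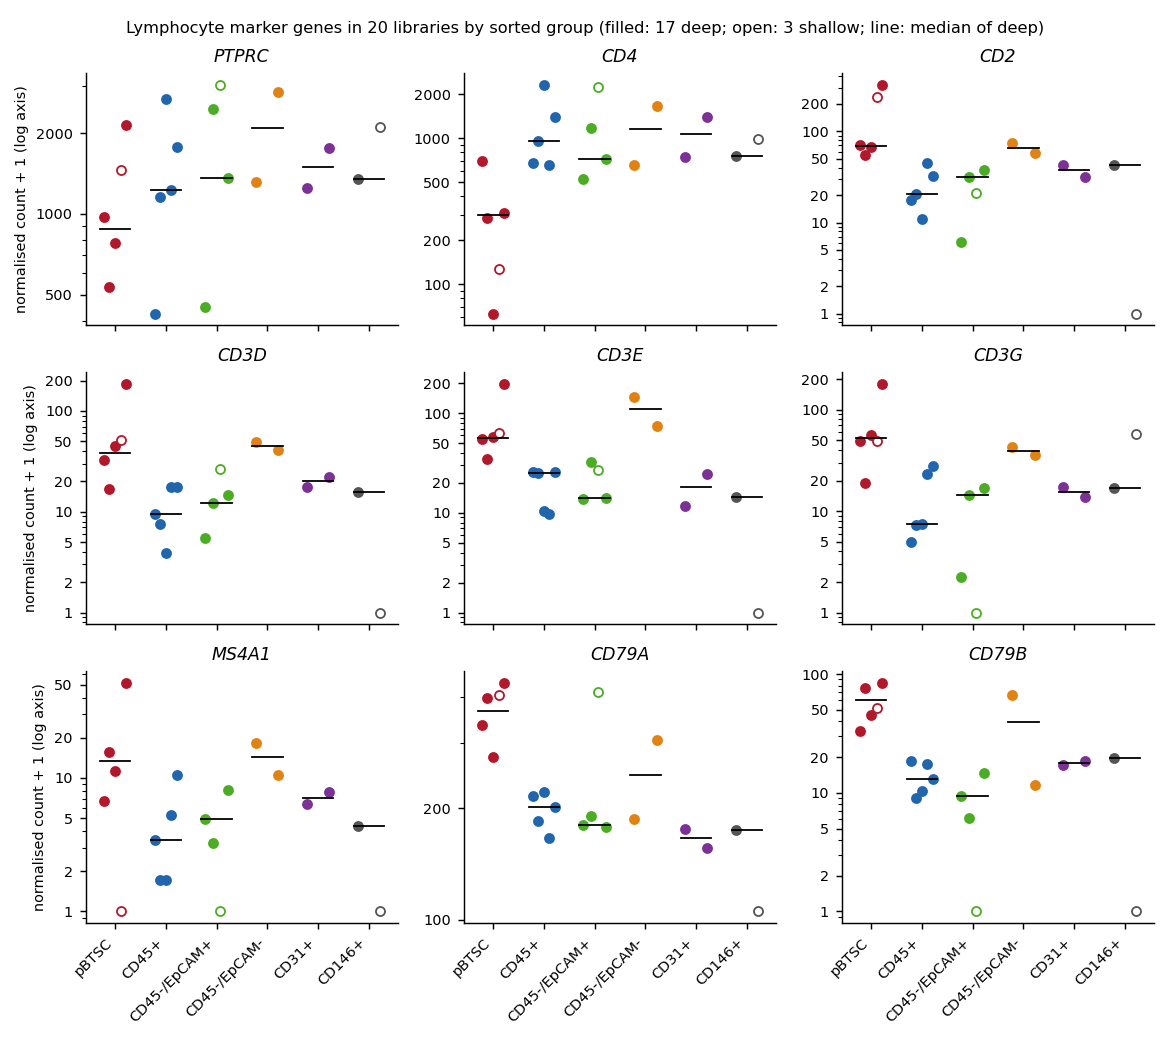
Normalised counts (plus 1, log axis) of the 9 genes in each library, by sorted group on the horizontal axis. Filled points are the 17 deep libraries, open points the 3 shallow ones, and the line is the median of the deep libraries. PTPRC overlaps in all groups, CD4 is lowest in pBTSCs (median 295 in 4 deep libraries), and the CD3 genes are highest in pBTSCs and CD45-/EpCAM- liver cells.

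Within the liver, PTPRC followed the run of storage numbers in part. Its standard deviation on the log2(normalised count + 1) scale over the 13 deep liver libraries was 0.537 within runs and 0.984 within sorts. In the run from 15 to 19, PTPRC lay between 1227 and 1364 in 4 libraries of 4 different sorts. In the run from 2 to 5 it lay between 424 and 1317, with the CD45-/EpCAM- library S5 at the top. SLAMF8, a receptor of the SLAM family, was the gene whose pattern was most like that of PTPRC over the 17 deep libraries (Pearson's r = 0.952), followed by CD38, an NAD-consuming surface enzyme of leukocytes, at 0.934 and AMBN at 0.928. These correlations share libraries, depth and runs, and are given as descriptions.

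CD4, the coreceptor of helper T cells that in several mammals is also made by monocytes and macrophages, was the member that was lower in pBTSCs. The pBTSC libraries held 697 normalised counts in S2, 284 in S7, 61.9 in S11, 126 in S15 and 306 in S20. The CD45+ liver libraries held 676 in S3, 954 in S8, 2327 in S12, 660 in S18 and 1400.1 in S23. Only the pBTSC library S2 reached into the CD45+ liver range, and the other 4 pBTSC libraries lay under all 15 liver libraries. CD4 was lower in pBTSCs than in CD45+ liver cells by limma (log2 fold change -2.30, standard error 0.56, adjusted p = 0.00429). It was also lower than in CD45-/EpCAM+ cells (-2.20, standard error 0.59, adjusted p = 0.00725), CD45-/EpCAM- cells (-2.26, standard error 0.74, adjusted p = 0.0181) and CD31+ cells (-2.23, standard error 0.74, adjusted p = 0.0466). Against CD146+ liver cells the difference was -1.99 (standard error 0.74, adjusted p = 0.0548). These comparisons share the pBTSC libraries. Without the 3 shallow libraries, the call held against CD45+ cells (-2.10, adjusted p = 0.0122) and CD45-/EpCAM- cells (-2.07, adjusted p = 0.0328), and was lost against CD45-/EpCAM+ cells (-1.62, adjusted p = 0.0714) and CD31+ cells (-2.03, adjusted p = 0.0705).

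Among the liver libraries CD4 went by run rather than by sort. Its values were 676 in the CD45+ library S3, 525 in the CD45-/EpCAM+ library S4 and 656 in the CD45-/EpCAM- library S5, 1 run of storage numbers. In the run from 15 to 19 the CD31+ library S16 held 739, the CD146+ library S17 757, the CD45+ library S18 660 and the CD45-/EpCAM+ library S19 719. In the run from 20 to 23 the CD31+ library S21 held 1405 and the CD45+ library S23 1400.1. The highest deep liver value was at most 1.41 times the lowest in each of the 5 runs, whereas over all 13 deep liver libraries it was 4.44 times the lowest. The standard deviation of CD4 on the log2 scale was 0.185 within runs and 0.738 within sorts. The pBTSC library S2 lay above the 3 liver libraries of its run, and the other 4 pBTSC libraries lay below all liver libraries of theirs.

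**Figure D2:**
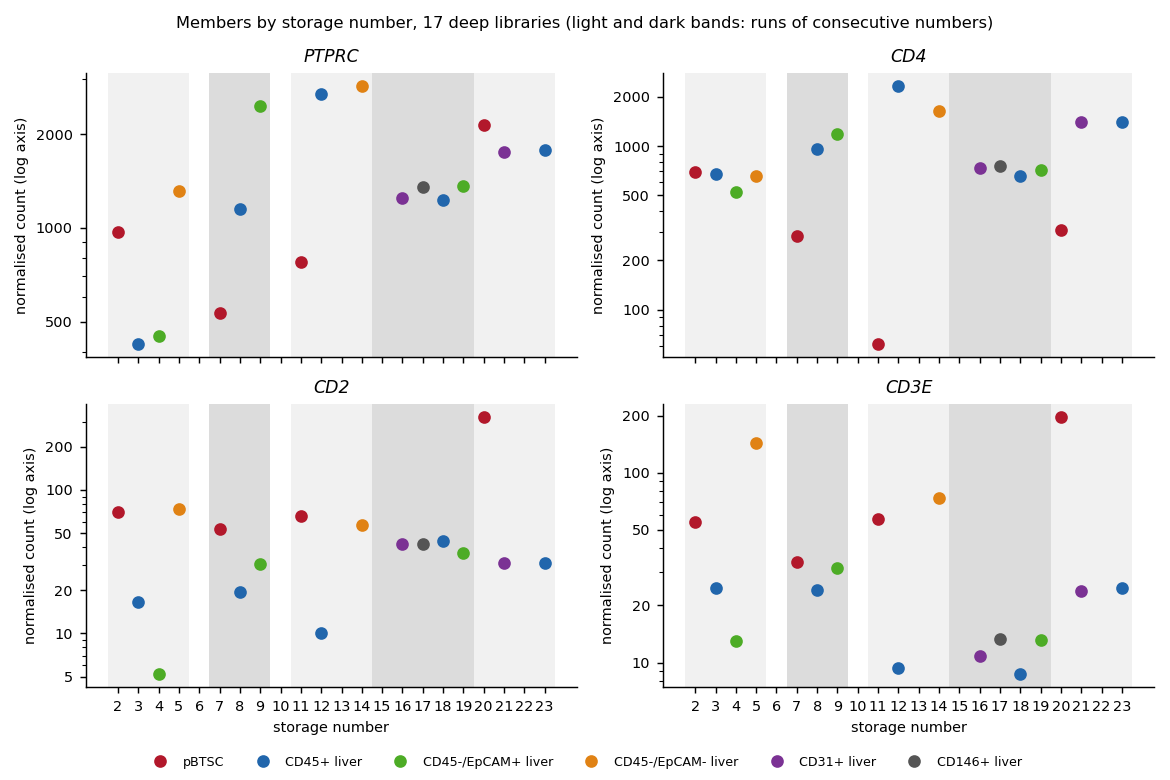
Normalised counts (log axis) of PTPRC, CD4, CD2 and CD3E in the 17 deep libraries against storage number, coloured by sorted group, with runs of consecutive numbers in light and dark bands. CD4 in liver libraries lies close within each band, up to 1.41 times from lowest to highest, while CD2 and CD3E of pBTSCs (red) and CD45-/EpCAM- cells (orange) lie above the other liver sorts of their band.

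The genes whose pattern was most like CD4 were ICAM3, a leukocyte adhesion molecule (r = 0.890 over 17 libraries), LRRC25 (0.885) and VAV1, an exchange factor of blood cells (0.871). Over the 17 deep libraries CD4 went with the summed level of the 13 macrophage and monocyte genes that had a row (r = 0.85), and within the 13 deep liver libraries at 0.89. With the 21 companion genes of T cells its correlation was -0.18 over the 17 libraries. The macrophage list, with CD163 and the C1Q chains at its top, summed to between 6932 and 18869 normalised counts in the 4 deep pBTSC libraries and to between 51374 and 184620 in CD45+ liver libraries. 12 of its 13 tested genes were lower and 1 was higher in pBTSCs than in CD45+ liver cells by limma (9.54% and 11% of all genes). CD163, a haemoglobin scavenger receptor of macrophages, differed by -3.20 on a log2 scale (its standard error 0.46, adjusted p = 4.09e-05) in that comparison, and C1QA, a chain of complement C1q, -3.27 (standard error 0.50, adjusted p = 7.08e-05). The part of macrophage RNA in the CD4 difference was not tested.

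The CD3 genes encode the signalling chains of the T cell receptor, and in the RefSeq annotation of Sscrofa11.1 CD3E, CD3D and CD3G follow each other with no gene between neighbours. CD3E stood at 54.8 normalised counts in pBTSC library S2, 33.9 in S7, 56.8 in S11, 63.0 in S15 and 197 in S20. In CD45+ liver cells it was 24.8 in S3, 24.1 in S8, 9.41 in S12, 8.66 in S18 and 24.8 in S23. Every pBTSC library lay above every CD45+ liver library, as for 17.8% of all genes tested. In CD45-/EpCAM+ liver cells CD3E was 12.9 in S4, 31.7 in S9, 25.8 in S13 and 13.2 in S19, and in CD45-/EpCAM- liver cells 144 in S5 and 73.7 in S14. The CD45-/EpCAM- libraries held more than every other liver library, and lay within the range of pBTSCs. The share of all genes with this order was not counted. In CD31+ cells it was 10.8 in S16 and 23.7 in S21, and in the deep CD146+ library S17 13.4.

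CD3D and CD3G had the same pair of groups at the top. CD3D was 31.5 in pBTSC library S2, 15.8 in S7, 43.9 in S11, 50.2 in S15 and 186 in S20, against 8.42 in the CD45+ library S3, 6.55 in S8, 2.89 in S12, 16.6 in S18 and 16.7 in S23. CD3G was 48.3 in S2, 18.02 in S7, 55.2 in S11, 47.7 in S15 and 179 in S20, against 3.94 in S3, 6.36 in S8, 6.41 in S12, 22.4 in S18 and 26.7 in S23. For both genes the pBTSC library S7 lay inside the CD45+ liver range and the other 4 lay above it. The 2 CD45-/EpCAM- libraries held CD3D at 48.6 in S5 and 40.1 in S14, and CD3G at 42.1 and 34.7. Over all 5 CD45+, 3 deep CD45-/EpCAM+, 2 CD31+ and 1 deep CD146+ libraries, both genes lay under those 2 values. In the CD45+ libraries alone 9.41% of all genes tested did so, and the share over all these libraries was not counted.

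CD2, the adhesion receptor of T cells and natural killer cells that binds CD48 or CD58 on other cells, was 70.1 in pBTSC library S2, 53.8 in S7, 66.0 in S11, 238 in S15 and 324 in S20. In CD45+ liver cells CD2 was 16.7 in S3, 19.3 in S8, 10.01 in S12, 44.2 in S18 and 31.2 in S23. The groups did not overlap, with pBTSCs above, as for 17.8% of all genes tested. The pBTSC libraries S15 and S20 of wild-type piglets held more CD2 than the 3 of the H2B-GFP line. In the shallow S15 the value was an estimated 18.9 reads, and the share of all genes with this order was not counted. The labels do not give the piglet line, so no test was made of it. In CD45-/EpCAM- cells CD2 was 73.7 in S5 and 56.9 in S14.

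MS4A1 encodes CD20, a surface protein of B cells, and was the member nearest to the floor of the libraries. It was 5.67 normalised counts in pBTSC library S2, 14.7 in S7, 10.2 in S11, 50.8 in S20 and 0 in the shallow S15, where the floor is 37.7. CD45+ liver cells held 2.41 in S3, 0.728 in S8, 0.722 in S12, 4.32 in S18 and 9.46 in S23, of which S8 and S12 are under their floors. CD45-/EpCAM- cells held 17.1 in S5 and 9.47 in S14. At this depth MS4A1 was a few reads in most liver libraries.

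CD79A and CD79B encode the paired signalling chains of the B cell receptor, and their transcripts did not vary alike. CD79A was 333 in pBTSC library S2, 396 in S7, 275 in S11, 402 in S15 and 435 in S20, and in CD45+ liver cells 215 in S3, 183 in S8, 220 in S12, 166 in S18 and 201 in S23. The groups did not overlap, with pBTSCs above, as for 17.8% of all genes tested. CD79A was the most even of the 9 genes, with a highest value 2.81 times the lowest over the 17 deep libraries, where the next, PTPRC, had 6.72. CD79B was 32.4 in S2, 74.6 in S7, 44.2 in S11, 50.3 in S15 and 83.9 in S20, and in CD45+ liver cells 17.45 in S3, 8.01 in S8, 9.39 in S12, 16.6 in S18 and 12.2 in S23, again without overlap. Its ratio of highest to lowest was 16.5 over the deep libraries. The correlation of CD79A and CD79B was 0.61 over the 17 deep libraries and -0.20 within the 13 of liver.

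Between pBTSCs and CD45+ liver cells, limma called 4 members higher in pBTSCs, where 11% of all genes tested were higher, and 1 lower, CD4, where 9.54% were lower. The 4 were CD2 (log2 fold change 2.36, standard error 0.82, adjusted p = 0.0352), CD3D (2.28, standard error 0.73, adjusted p = 0.0233), CD3E (1.95, standard error 0.64, adjusted p = 0.0262) and CD3G (2.27, standard error 0.79, adjusted p = 0.0343). Over the deep libraries, CD2, CD3E, CD79A and CD79B lay above every CD45+ liver library, as 20.4% of all genes tested did. CD79A was higher by 0.89 (standard error 0.24, adjusted p = 0.00965), under the fold required, and CD79B by 2.06 (standard error 0.78, adjusted p = 0.05001). Without the 3 shallow libraries, 6 members were higher (13.8% of genes), with CD79B (2.08, adjusted p = 0.00334) and MS4A1 (2.14, adjusted p = 0.0154) added, and CD4 was lower (10.2%). These calls rested on pBTSC library S20. Without it, CD2 (1.98), CD3D (1.79), CD3E (1.56) and CD3G (1.84) kept their direction with adjusted p between 0.0700 and 0.0955, and CD4 was the 1 member called. Leaving out CD45+ library S12 also left CD4 as the 1 member called, and leaving out S8 left CD3E and CD4. Of all genes, 19.8% were called in either direction without S20, 18.6% without S12 and 18.7% without S8, against 20.6% over all 20 libraries.

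**Figure D3:**
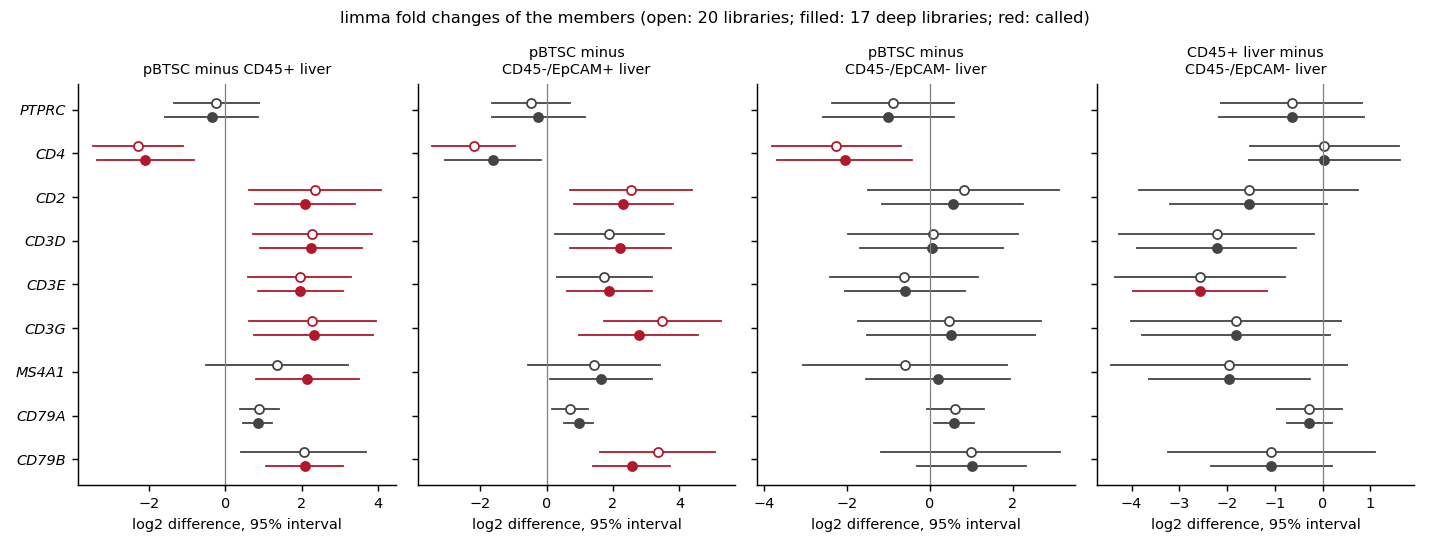
Log2 differences of the 9 genes with 95% intervals (horizontal axis) in 4 comparisons, over all 20 libraries (open) and over the 17 deep ones (filled), with red for a call. For pBTSCs against CD45+ liver cells, the CD3 genes and CD2 lie above 0 and CD4 below 0. Over the 20 libraries these 4 and 1 are called, where 11% and 9.54% of all genes are. Over the deep libraries 7 are called, CD79B and MS4A1 included, where 24% of genes are called in either direction. For pBTSCs against CD45-/EpCAM- cells only CD4 is called in both fits, where 16.6% and 17.8% of genes are lower.

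Against CD45-/EpCAM+ liver cells, 3 members were higher in pBTSCs (14.8% of genes) and CD4 was lower (10.3%). They were CD2 (2.54, standard error 0.87, adjusted p = 0.0288), CD3G (3.49, standard error 0.84, adjusted p = 0.00330) and CD79B (3.35, standard error 0.82, adjusted p = 0.00388). The shallow library S13, with CD3G and CD79B at 0, enlarged the last pair, which without the 3 shallow libraries stood at 2.77 (adjusted p = 0.0174) and 2.56 (adjusted p = 0.00197). Then 5 members were higher (15.1%), CD3D (2.22, adjusted p = 0.0236) and CD3E (1.88, adjusted p = 0.0221) included, and 0 were lower (10.9%), where CD4 had an unadjusted p of 0.0306. In the deep libraries 6 members (CD2, CD3D, CD3E, CD3G, CD79A and CD79B) lay above every CD45-/EpCAM+ library, as 25.9% of all genes did. Without S20, CD3G and CD79B stayed higher and CD4 lower, where 24.2% of all genes were called in either direction. CD3G in the deep CD45-/EpCAM+ library S4 was 1.22, under its floor of 1.68.

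Against CD45-/EpCAM- liver cells, which held the most CD3 transcripts of the liver sorts, limma called 0 members higher in pBTSCs although 20% of genes were higher, and 1 lower, CD4, where 16.6% were lower. No other member had an unadjusted p under 0.05 there. The difference of CD3E was -0.62 with a 95% interval from -2.41 to 1.17, and that of CD3D was 0.06 from -1.98 to 2.11. Those intervals hold differences of more than 1 in both directions. The same counts came without the shallow libraries (0 higher with 23.2% of genes and 1 lower with 17.8%), where CD79A alone of the remaining members had an unadjusted p under 0.05, with a difference of 0.57. Leaving out the CD45-/EpCAM- library S14 ended the call of CD4, where 37.7% of all genes were called in either direction. Rescaling the libraries to the same total moved the median log2 fold change of all genes from 0.04 to 0.51 here. CD79A alone was then called higher and CD4 was not called, where 39.4% of all genes were called in either direction. Under that rescaling 6 members were higher and 1 lower against CD45+ cells (median of all genes 0.31, with 2407 genes higher and 1198 lower in place of 1716 and 1486), and 6 higher and 1 lower against CD45-/EpCAM+ cells (median 0.39, with 3276 and 1239 in place of 2302 and 1603).

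Against CD31+ liver cells, a sort for an endothelial surface antigen with 2 libraries, 1 member was higher in pBTSCs (6.73% of genes), CD79A (1.14, standard error 0.32, adjusted p = 0.0203), and CD4 was lower (7.62%). Without the shallow libraries CD79A (1.10, adjusted p = 0.00272) and CD3E (2.01, adjusted p = 0.0439) were higher (10.1%) and 0 were lower (8.71%). In those deep libraries CD2, CD3E, CD3G, CD79A and CD79B lay above both CD31+ libraries, as 32.8% of all genes did, and CD4 lay below them, as 23.4% did. With the range or the run of storage numbers as a term over the deep libraries, fits chosen after seeing the data, 7 members were higher (11.1% and 12.6% of genes), with PTPRC and CD4 not called. The comparison with CD146+ liver cells rests on the deep library S17 and the shallow S22, where 5 of the 9 genes are 0 under a floor of 156. The fit called CD2, CD3D, CD3E, CD79A and CD79B higher (14.5%) and 0 lower (7.75%). Without the shallow libraries, 1 was higher (4.87%), CD79A (1.03, standard error 0.29, adjusted p = 0.0384), and 0 were lower (5.23%), with CD146+ represented by S17 alone, which is assumed to vary as the other groups do. CD3E was then 2.26 higher with an adjusted p of 0.130.

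CD45+ liver cells were also compared with the other liver sorts, of which the labels give no CD45 status for CD31+ and CD146+ cells. Against CD45-/EpCAM+ cells, limma called 0 members and 0% of genes, with 0 members and 214 genes at an unadjusted p under 0.05. The intervals there were wide, with CD79B at 1.29 (95% interval -0.44 to 3.03) and CD3G at 1.21 (-0.56 to 2.98) for CD45+ relative to CD45-/EpCAM+ cells, and the test does not show that these levels are alike. Against CD31+ cells it also called 0 members and 0% of genes, with 0 members and 33 genes at an unadjusted p under 0.05. Against CD146+ cells 0 members and 0% of genes were called, with 1 member and 2158 genes at an unadjusted p under 0.05 in the fit with S22 and 105 genes without the shallow libraries.

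Against CD45-/EpCAM- liver cells, the T cell genes CD2, CD3D, CD3E and CD3G and the B cell gene MS4A1 lay below both CD45-/EpCAM- libraries in all 5 CD45+ libraries, as 9.41% of all genes did. In the fit over 20 libraries 0 members were called, where 7.25% of genes were, and CD3E (-2.57, standard error 0.85, adjusted p = 0.0644) and CD3D (-2.22, standard error 0.97, adjusted p = 0.157) had an unadjusted p under 0.05. Without the shallow libraries CD3E was called lower (-2.57, standard error 0.65, adjusted p = 0.0196), where 2.94% of genes were lower. With the run of storage numbers as a term in the fit of the 17 deep libraries, an alternative chosen after seeing the data, 5 were lower, where 3.36% of genes were. They were CD2 (-2.46, adjusted p = 0.0153), CD3D (-2.90, adjusted p = 0.0102), CD3E (-2.83, adjusted p = 0.00941), CD3G (-2.67, adjusted p = 0.0265) and MS4A1 (-2.67, adjusted p = 0.00812). CD4 stood at 0.04 (95% interval -1.53 to 1.60) without that term and at -0.05 (-1.96 to 1.86) with it. The standard deviations of CD3D were 1.21 within runs and 0.758 within sorts, and those of CD3E 1.14 and 0.725, the reverse of CD4.

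The CD45-/EpCAM- libraries differed from CD45+ libraries in genes of other blood cells too. Their erythroid list, in which HBB is the beta chain of haemoglobin, summed to between 200610 and 898030 normalised counts against 8514 to 22133. The list holds TFR2, at 5958.5 to 12128 against 3051 to 8106, so the smaller sums are in part TFR2. In deep pBTSC libraries TFR2 was 73.7 to 265. In CD45+ cells 7 of 8 tested erythroid genes were lower, where 7.25% of all genes were called in either direction. HBB itself differed by -6.00 in log2 units (standard error 1.04, adjusted p = 0.00288). The granulocyte list summed to between 16739 and 71681 against 253 to 5818. Of its 7 genes 1 was called lower, or 3 of 7 without the shallow libraries, where 2.94% of all genes were lower. CD3E went with the erythroid sum, TFR2 included, at r = 0.84 over the 17 deep libraries and at 0.89 over the 13 of liver. For CD2 the values were 0.43 and 0.27. The part of blood cell RNA in the CD3E difference was not tested. The hepatocyte list (ALB, APOA1, SERPINA1 and others) summed to between 672860 and 1926400 in CD45+ libraries and to between 793580 and 1863200 in deep libraries of the CD45-/EpCAM+, CD31+ and CD146+ sorts.

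The companion genes of the T cell receptor were counted as a list of 21, of which 20 were tested, beside the members. Against CD45+ liver cells 9 of 20 were higher in pBTSCs and 0 lower, where 11% and 9.54% of all genes were. Their median log2 fold change was 1.59, and that of all genes 0.07. Without the shallow libraries 10 of 20 were higher and 0 lower (13.8% and 10.2% of all genes). Without pBTSC library S20, 6 of 18 were higher and 1 lower, where 19.8% of all genes were called in either direction. Against CD45-/EpCAM- cells 2 of 20 were higher and 0 lower, where 20% and 16.6% of all genes were, with a median of 0.01. The 4 with the highest mean level were LAT, an adaptor phosphorylated after receptor engagement, TCF7, a transcription factor of T cells, CD247, the zeta chain of the receptor complex, and CD8B, a chain of the coreceptor of cytotoxic T cells, and none was called against CD45+ cells. TCF7 was higher by 0.72 (standard error 0.21, adjusted p = 0.0130), under the fold required, and LAT differed by -0.24 (standard error 0.20, adjusted p = 0.390). CD8B went the other way with -2.63 (standard error 1.02, adjusted p = 0.0550), from between 2.21 and 168 in CD45+ libraries to between 0.961 and 20.6 in the deep pBTSC libraries.

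Of the 23 companion genes of B cells and plasma cells, 17 were tested. In pBTSCs 5 were higher and 1 lower than in CD45+ liver cells, where 11% and 9.54% of all genes were. Their median was 1.58. Without the shallow libraries 9 were higher and 2 lower (13.8% and 10.2% of all genes). Without S20, 3 were higher and 1 lower, where 19.8% of all genes were called in either direction. The genes called included some that other cells also make. EBF1, a transcription factor of early B cells that is also made by stromal cells, was 2.04 higher (standard error 0.35, adjusted p = 2.13e-04), with 2424 to 2597 normalised counts in deep pBTSC libraries against 306 to 973. TNFRSF13C, the receptor for the B cell survival factor BAFF, was lower by -2.97 (standard error 0.34, adjusted p = 3.81e-06). BTK, a kinase of B cells and myeloid cells, differed by -1.08 (standard error 0.48, adjusted p = 0.0916). Of the natural killer and cytotoxic cell genes, 2 of 12 tested were higher and 0 lower in pBTSCs than in CD45+ cells (11% and 9.54% of all genes). GNLY, the antimicrobial protein granulysin of cytotoxic lymphocytes, was 3.33 higher (standard error 0.83, adjusted p = 0.00489), and NKG7, a protein of cytotoxic granules, differed by -1.04 (standard error 0.45, adjusted p = 0.0830).

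Of 20 pan-leukocyte genes, 0 were higher and 4 lower in pBTSCs than in CD45+ liver cells, where 9.54% of all genes were lower, and the other 16 did not pass the test. Their median was -0.60. Against CD45-/EpCAM- cells 0 were higher and 11 lower, where 16.6% of all genes were lower, with a median of -1.69. No test compared them with the CD3 genes. LCP1, an actin-bundling protein of leukocytes, was lower by -1.19 (standard error 0.45, adjusted p = 0.0496) and ITGB2, the beta chain of leukocyte integrins, by -1.32 (standard error 0.42, adjusted p = 0.0227) against CD45+ cells. Relative to PTPRC within the same library, CD3E was 5.64 to 9.22 per 100 normalised counts of PTPRC in the 4 deep pBTSC libraries, 2.59 and 10.9 in the CD45-/EpCAM- libraries, and 0.350 to 5.85 in the 11 other deep liver libraries. The same ratio for CD2 was 7.21 to 15.2 in pBTSCs, 1.998 to 5.59 in CD45-/EpCAM- cells and 0.373 to 3.93 in the other liver libraries. The pBTSC range thus lay above both for CD2, as it did for CD3G. For CD3D, CD3E, MS4A1, CD79A and CD79B the pBTSC range overlapped that of other groups. PTPRC had its lowest group median in pBTSCs (874 in deep libraries), which raises such ratios there. The share of all genes with a separate range was not counted. For CD4 the ratio was 7.96 to 71.8 in pBTSCs and 48.1 to 159.5 in those other liver libraries. These ratios depend on the lengths of both transcripts and are compared only between libraries.

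CD2 and the CD3 genes varied most closely together. Over the 17 deep libraries CD2, CD3D and CD3G correlated with each other at 0.92 to 0.96, and CD3E with these at 0.71 to 0.82. MS4A1 went with CD3D at 0.87 and with CD79B at 0.78. CD4 had negative correlations with the 7 other members that are not PTPRC, from -0.64 with CD79B to -0.33 with CD3E, and 0.55 with PTPRC. Within the 13 deep liver libraries CD2 and CD3G still had 0.94, CD4 and PTPRC 0.79, and CD4 and CD2 -0.02, while CD79A had 0.03 with CD2 and 0.49 with CD4. The libraries share depth, runs and sorts, and with S20 at the top of 7 members the correlations over 17 libraries lean on it.

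**Figure D4:**
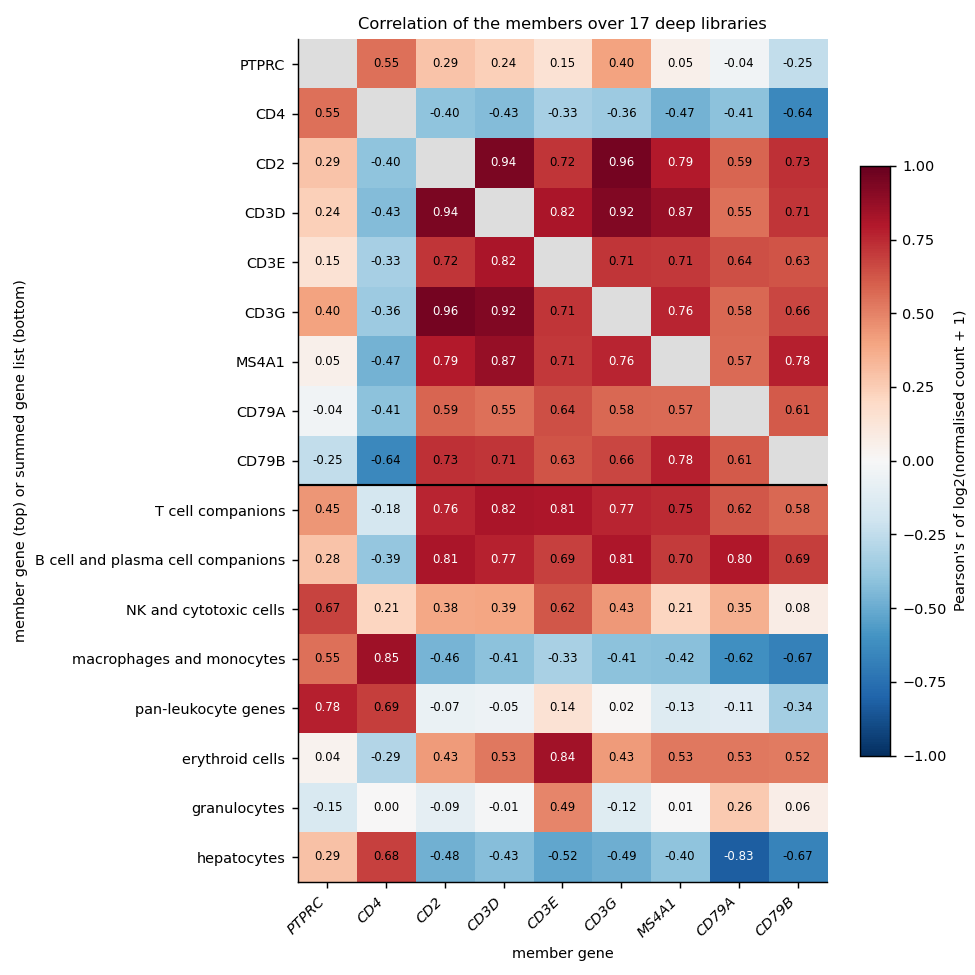
Pearson's r of log2(normalised count + 1) between the 9 genes (upper rows) and with the summed level of 8 gene lists (lower rows) over the 17 deep libraries. CD2, CD3D and CD3G stand together at 0.92 to 0.96, while CD4 stands with the macrophage list at 0.85 and has negative values with the CD3 genes.

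The genes most like each member were in part other T cell genes. TRAT1, an adaptor that sits with the T cell receptor, was nearest to CD2 (r = 0.954), CD3D (0.954) and CD3G (0.935). For CD2 the next were ST18 (0.925) and CD5, a T cell receptor modulator (0.921). For CD3D they were TRAC, the constant region of the receptor alpha chain (0.933), and FCMR (0.922). For CD3G they were CCL21 (0.930) and TRDC, the constant region of the delta chain (0.922). CD3E was nearest to CTSW, a protease of cytotoxic lymphocytes (0.956), then PTPN22, a lymphocyte phosphatase (0.941), and CRHBP (0.917). MS4A1 was nearest to LAMP3, a lysosomal protein of mature dendritic cells (0.909), and FCMR, the receptor for IgM (0.873). CD79A was nearest to SCART1 (0.918) and SLAMF1 (0.900), and CD79B to IFT80, a protein of cilia (0.966), and PHF1, a chromatin protein (0.926).

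The storage numbers were compared among the 15 liver libraries with the sort as a term. The boundary was placed where the pBTSC libraries pass from H2B-GFP to wild-type piglets, and had been seen in an earlier analysis of AFP in these data. CD45-/EpCAM- libraries occur only in 3 to 14, and CD31+ and CD146+ libraries only in 16 to 23. The contrast therefore rests on the CD45+ and CD45-/EpCAM+ libraries. Between numbers 16 to 23 and 3 to 14, limma called 0 members where 3.49% of genes were called, and 2 members, CD3G (2.14, adjusted p = 0.0924) and MS4A1 (1.74, adjusted p = 0.108), had an unadjusted p under 0.05. Without the shallow libraries both were higher in 16 to 23 (CD3G 1.83, standard error 0.51, adjusted p = 0.0389, and MS4A1 1.51, standard error 0.40, adjusted p = 0.0326), where 3.9% of genes were higher. In the liver CD3G was 1.22 to 13.5 in the deep CD45+ and CD45-/EpCAM+ libraries of numbers 3 to 14 and 15.8 to 26.7 in those of 16 to 23. The value of 1.22, in S4, is under its floor of 1.68. What the storage numbers stand for in the preparation of the libraries is not given in the sources used here.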

How the data were processed

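RNA from 20 preparations of sorted porcine cells was extracted with a Qiagen RNeasy kit and made into stranded mRNA libraries, per the labels. The authors deposited 1 table of normalised counts, a signal that is never negative, for 25764 genes. The submitters' processing notes name STAR, Salmon and DESeq2, and the genome build is not given in the sources used here. What 1 read is worth in a library was taken as the value around which its lowest values were densest. In the 17 deep libraries 67.2% to 84.3% of the low values, and 60.3% at the least in a shallow one, fell within 0.05 of a whole number of reads, and counts were therefore not rebuilt and no count model was fitted.

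log2(normalised count + 1) was fitted with limma (version 3.58.1, R version 4.3.3; lmFit and a trended eBayes) over 15576 genes with at least 10 normalised counts in at least 2 libraries, all 6 groups in 1 fit. p-values were adjusted with the Benjamini-Hochberg method over all genes tested, and a call required an adjusted p under 0.05 together with a log2 fold change beyond 1 in either direction. The pseudocount shrinks fold changes of low genes, whereas zeros in shallow libraries can make them larger. The storage comparison used the 15 liver libraries with the sort as a term. The script was tested on simulated data. Tables were made with pandas 2.3.3, numpy 2.4.6 and scipy 1.17.1 in Python 3.11.15, and figures with matplotlib 3.10.9.

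The 9 genes and the companion lists were chosen with earlier results of these data known. Named genes are the 9 members, the 4 genes of a list with the highest mean in deep libraries, and the 3 named genes most correlated with a member, of which 2 or 3 are given. The closest libraries of 1 group, S20 and the shallow S15, differed by 1.69 times counting noise, and none was counted as a duplicate. Deep liver libraries of the same sort differed by at least 3.39 times. Some libraries of different sorts came nearer, such as the deep S18 and S19 at 1.67, and S21 and the shallow S22 at 1.19. All 9 names matched the RefSeq gene annotation of Sscrofa11.1, and no coordinates are given. Alternatives tried were pseudocounts, scalings and filters other than these, library weights, storage terms, fits of the compared groups alone, fits without shallow libraries, and each library left out in turn. Whether the counting used strand is not given in the sources used here.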

Additional observations from a re-analysis of the deposited data

Results flagged for a closer look

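Within groups of 4 or 5 libraries, 27 group and gene combinations were checked for a library far from the rest by Dixon's 95% criterion. Of these, 5 met it, where chance gives about 1 in 20. The criterion was applied to normalised counts and not on the log2 scale of the tests. In pBTSCs, wild-type library S20 stood far above the other 4 libraries in CD3D (186 normalised counts), CD3E (197), CD3G (179) and MS4A1 (50.8). The 4 values come from the same library and are not independent of each other. In CD45-/EpCAM+ liver cells the shallow library S13 stood above the other 3 in CD79A (411 normalised counts), where its floor of 3 reads is 77.1.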

How the results depend on the processing

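Of the 90 fold changes of members, 17 were called, none reversed in any fit, and 4 held with each library left out in turn. Of all genes, 0% to 36.6% were called, depending on the comparison. How many calls of all genes were kept in the other fits was not counted. All 17 were kept with a pseudocount of 10, the median-ratio scaling, the filter in at least 5 libraries or the storage range as a term. The storage run as a term kept 16, rescaling to the same total 15, no filter 14, the compared groups alone 13, library weights 12, and a pseudocount of 0.1 or the fit without shallow libraries 11. Without the shallow libraries, the range term kept 11 and the run term 10, both added after seeing the data.

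The share of all genes called in the same fit stands in brackets here. Members called in pBTSCs against CD45+ liver cells went from 5 to 1 at a pseudocount of 0.1 (18.1%) and 3 with no filter (16.3%). Against CD45-/EpCAM+ cells they went from 4 to 7 with rescaling to the same total (29%). Against CD45-/EpCAM- cells they went from 1 to 0 with library weights (36.1%) or the compared groups alone (39.7%). Against CD31+ cells they went from 2 to 1 at a pseudocount of 0.1 (12%), with rescaling to the same total (16.8%) or no filter (10.7%), to 5 with library weights (24.4%) and to 7 with the range (20.1%) or run term (23%) without shallow libraries. Against CD146+ cells they went from 5 to 1 with library weights (10.8%), without the shallow libraries (10.1%) or with the run term as well (14.6%), and to 3 with the range term as well (10.8%) or the compared groups alone (17%). Between CD45+ and CD45-/EpCAM- liver cells they went from 0 to 1 at a pseudocount of 10 (7.87%), without the shallow libraries (10.6%) or with the compared groups alone (3.81%), and to 5 with the range (9.55%) or run term (10.8%) without shallow libraries. Between storage numbers they went from 0 to 3 with library weights (13.1%) and 2 without the shallow libraries (7.25%). The causes were not tested.

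With each library left out, members called in pBTSCs ranged from 1 to 6 against CD45+ cells (18.6% to 22.1% of genes), 3 to 6 against CD45-/EpCAM+ cells (23.2% to 27.9%), 0 to 1 against CD45-/EpCAM- cells (21.9% to 38.8%), 0 to 2 against CD31+ cells (6.54% to 16.2%), where each CD31+ library left out gave 0, and 0 to 6 against CD146+ cells (7.41% to 29.5%), where S22 left out gave 0. CD45+ liver cells ranged from 0 to 1 against CD45-/EpCAM- cells (0.0709% to 13%) and 0 to 4 against CD146+ cells (0% to 13%), the 4 with S22 as the only CD146+ library, where 13% of genes were called. Between storage numbers the range was 0 to 1 (0.578% to 4.82%). Depth limits MS4A1, at or under 3 reads in 2 deep liver libraries, CD3G, under 3 reads in the deep S4, and every low member in S13, S15 and S22.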

Other observations

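JCHAIN, which joins IgM and IgA chains into polymers in plasma cells, ranged from 25.5 to 8213 normalised counts in the 4 deep pBTSC libraries (median 87.9) and from 21.8 to 102 in the 13 deep liver libraries. limma gave 3.09 on the log2 scale for pBTSCs against CD45+ liver cells (standard error 1.38, adjusted p = 0.0960), which did not pass the threshold. The same pBTSC library, S20, held the highest values of JCHAIN and of 7 of the 9 lymphocyte marker genes. EBF1 was 102 and 137 normalised counts in the 2 CD45-/EpCAM- liver libraries and 300.4 to 1118 in the other deep liver libraries.

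Between pBTSCs and CD45+ liver cells, where 11% of all genes were higher and 9.54% lower in pBTSCs by limma, lists of other cell types were counted as well. All 6 hepatocyte genes were lower in pBTSCs (median log2 fold change -8.20). Of 8 erythroid genes 2 were higher and 1 lower, and of 7 granulocyte genes 1 was higher and 0 lower, with 0 higher without library S20. Of 6 endothelial genes 1 was higher and 2 lower, and of 5 biliary epithelial genes 1 was higher and 1 lower.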
